A study of Homo sapiens with 30 samples.

Results

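Cells mark cytosines in CG dinucleotides with methyl groups, copy that mark at each division and can take it off again. The 10 genes described here carry out these steps: DNMT1, UHRF1, DNMT3A, DNMT3B, DNMT3L, TET1, TET2, TET3, TDG and GADD45A. They were picked by symbol from the 28307 genes that each table lists, and each was present in all 30 tables. The choice used no counts, but it was made with earlier results of these data known. Levels are counts per 1000000 counts of the library (CPM), so an absolute change in RNA per cell is not measured. Since the libraries are from bulk cultures, fewer cells of a type and less RNA per cell cannot be told apart.

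All libraries are RNA-seq of H9, an established human embryonic stem (hES) cell line, and fall into 10 groups of 3. Primed WT cells, which resemble the epiblast after implantation, grew on Matrigel. NaiveCult WT and PXGL WT cells were unmodified naive cells, which resemble the epiblast before implantation, reset from primed cells with either of those protocols and grown on mouse embryonic fibroblasts. PXGL medium holds inhibitors of MEK, tankyrase and protein kinase C together with leukaemia inhibitory factor. XIST KO cells were PXGL cells of 1 homozygous knockout clone, and its libraries were technical replicates. CRISPRi UT (untreated) and CRISPRi Dox (doxycycline-treated) cells were PXGL clones with a doxycycline-inducible dCas9-KRAB repressor and a guide at the XIST promoter, so both carried the repressor cassette. The siScr, siSPEN1 and siSPEN2 groups were PXGL cells given a scrambled siRNA or either of the siRNA mixes against SPEN. XACT KO cells were NaiveCult clones with a deletion over the transcription start sites of XACT.

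DNMT1 is the maintenance methyltransferase: it restores methylation on the new DNA strand after replication, and UHRF1 brings it to half-methylated sites. DNMT3A and DNMT3B place methyl groups on unmethylated DNA, and DNMT3L, which has no catalytic activity of its own, binds and stimulates them. TET1, TET2 and TET3 are dioxygenases that oxidise methylated cytosine. TDG is a glycosylase that cuts out the more oxidised bases, after which base excision repair restores cytosine, and GADD45A is a stress-induced protein reported to take part in this removal. Naive hES cells are known for much lower DNA methylation than primed cells. DNA methylation itself is not measured in these count tables.

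The libraries held 31.2 to 65.6 M counts each, where M stands for 1000000. The targeted genes were examined first. XIST was at 899.7 ± 1.56 CPM (mean ± SD, n = 3 libraries, as below) in PXGL WT and 0.333 ± 0.140 CPM in XIST KO, and at 678 ± 30.7 CPM in CRISPRi UT and 112 ± 91.4 CPM in CRISPRi Dox. SPEN stood at 330.0 ± 46.3 in siScr, 163 ± 13 in siSPEN1 and 157 ± 8.28 CPM in siSPEN2, and XACT at 1.71 ± 0.525 in NaiveCult WT against 0.0669 ± 0.0627 CPM in XACT KO. Summed naive markers (5 genes) lay at 22.1 to 26.7 CPM in Primed WT, where KLF17 and ARGFX were at 0, and at 1252 to 2101 CPM in the other groups. Summed primed markers (5 genes) lay at 3982 to 4248 CPM in Primed WT and 81.6 to 175 CPM elsewhere. Library names form 3 series: PXGL WT, XIST KO and both CRISPRi groups share the first, the siRNA groups the second, and Primed WT, NaiveCult WT and XACT KO the third.

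A gene is said to rise or fall where edgeR's quasi-likelihood test gave a Benjamini-Hochberg adjusted p below 0.05 over all genes, and is said to be called where its log2 fold change was also beyond 1 in size. All 10 genes passed the filter on low counts in each fit, DNMT3L only through the naive groups where primed cells were compared. The methods describe the libraries of a group as biological replicates, except those of XIST KO. The labels do not name separate cultures. Library ranges without overlap were common among genes with a mean of at least 1 CPM. They were apart for 87.8% in NaiveCult WT and 91.2% in PXGL WT against Primed WT, and 83.7% between the naive protocols. The share was 41.7% in XIST KO, 49.4% in CRISPRi Dox and 25.1% in XACT KO. It was 55.5% with siSPEN1, 55.8% with siSPEN2 and 47.7% between the mixes.

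TET2 and TET3 changed in opposite directions in NaiveCult WT against Primed WT, in PXGL WT against NaiveCult WT, with doxycycline and with siSPEN1, as given below. In PXGL WT against Primed WT both rose. With siSPEN2 and in XIST KO TET2 fell and TET3 did not pass. The TET genes also differ in the sequence in front of them, whose part in these changes was not tested. The 250 bases before the most upstream RefSeq start sites of TET1, TET2 and TET3 (GRCh38.p14, plus strand) are shown with each CG dinucleotide, the sequence that these enzymes act on, in capitals.

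TET1, chr10:68560087-68560336: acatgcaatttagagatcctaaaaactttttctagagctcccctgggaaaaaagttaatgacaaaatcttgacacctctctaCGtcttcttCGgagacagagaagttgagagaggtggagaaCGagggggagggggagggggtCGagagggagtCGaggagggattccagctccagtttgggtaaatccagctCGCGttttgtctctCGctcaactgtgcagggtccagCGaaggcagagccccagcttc

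TET2, chr4:105145625-105145874: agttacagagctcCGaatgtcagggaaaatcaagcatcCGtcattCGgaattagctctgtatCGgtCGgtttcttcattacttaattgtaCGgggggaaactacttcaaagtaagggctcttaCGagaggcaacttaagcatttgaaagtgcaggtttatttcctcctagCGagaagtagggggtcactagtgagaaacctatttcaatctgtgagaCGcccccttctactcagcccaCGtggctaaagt

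TET3, chr2:73984660-73984909: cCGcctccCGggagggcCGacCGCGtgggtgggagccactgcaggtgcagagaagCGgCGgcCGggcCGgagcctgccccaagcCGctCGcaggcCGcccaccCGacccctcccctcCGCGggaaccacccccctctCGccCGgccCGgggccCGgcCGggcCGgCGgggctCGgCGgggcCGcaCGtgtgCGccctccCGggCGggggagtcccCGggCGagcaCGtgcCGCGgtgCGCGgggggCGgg

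These stretches hold 9, 10 and 37 CG dinucleotides, and none of their bases lies in an annotated exon. In windows of 300 bases that also take in the first 50 transcribed bases, the counts were 10 for TET1, 13 for TET2 and 45 for TET3, against a median of 14 over 35116 RefSeq promoter windows. Of all windows 43.6% held fewer than that of TET1, 48.3% fewer than that of TET2 and 96.5% fewer than that of TET3. A further TET2 start site lay in a window with 35 CG dinucleotides, and the DNMT1 window held 30.

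Across the 10 groups the genes differed widely in how much their level varied. TET2 (chromosome 4, 105145875 to 105279816, plus strand) had group means from 34.8 ± 8.01 CPM in CRISPRi Dox to 196 ± 6.04 CPM in XACT KO, a span of 5.63-fold, the widest among genes detected in every group. UHRF1 spanned 4.09-fold, GADD45A 4.07-fold and TET3 3.70-fold. DNMT1, DNMT3B and TET1 spanned 2.35-fold, 2.56-fold and 2.46-fold. DNMT3A spanned 1.36-fold and TDG 1.51-fold. DNMT3L stood apart, with no read in primed cells. Within groups the coefficient of variation had a median of 8.22% for TET2 and 10.2% for GADD45A, and of 1.93% to 5.02% for the other 8 genes.

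**Figure D1:**
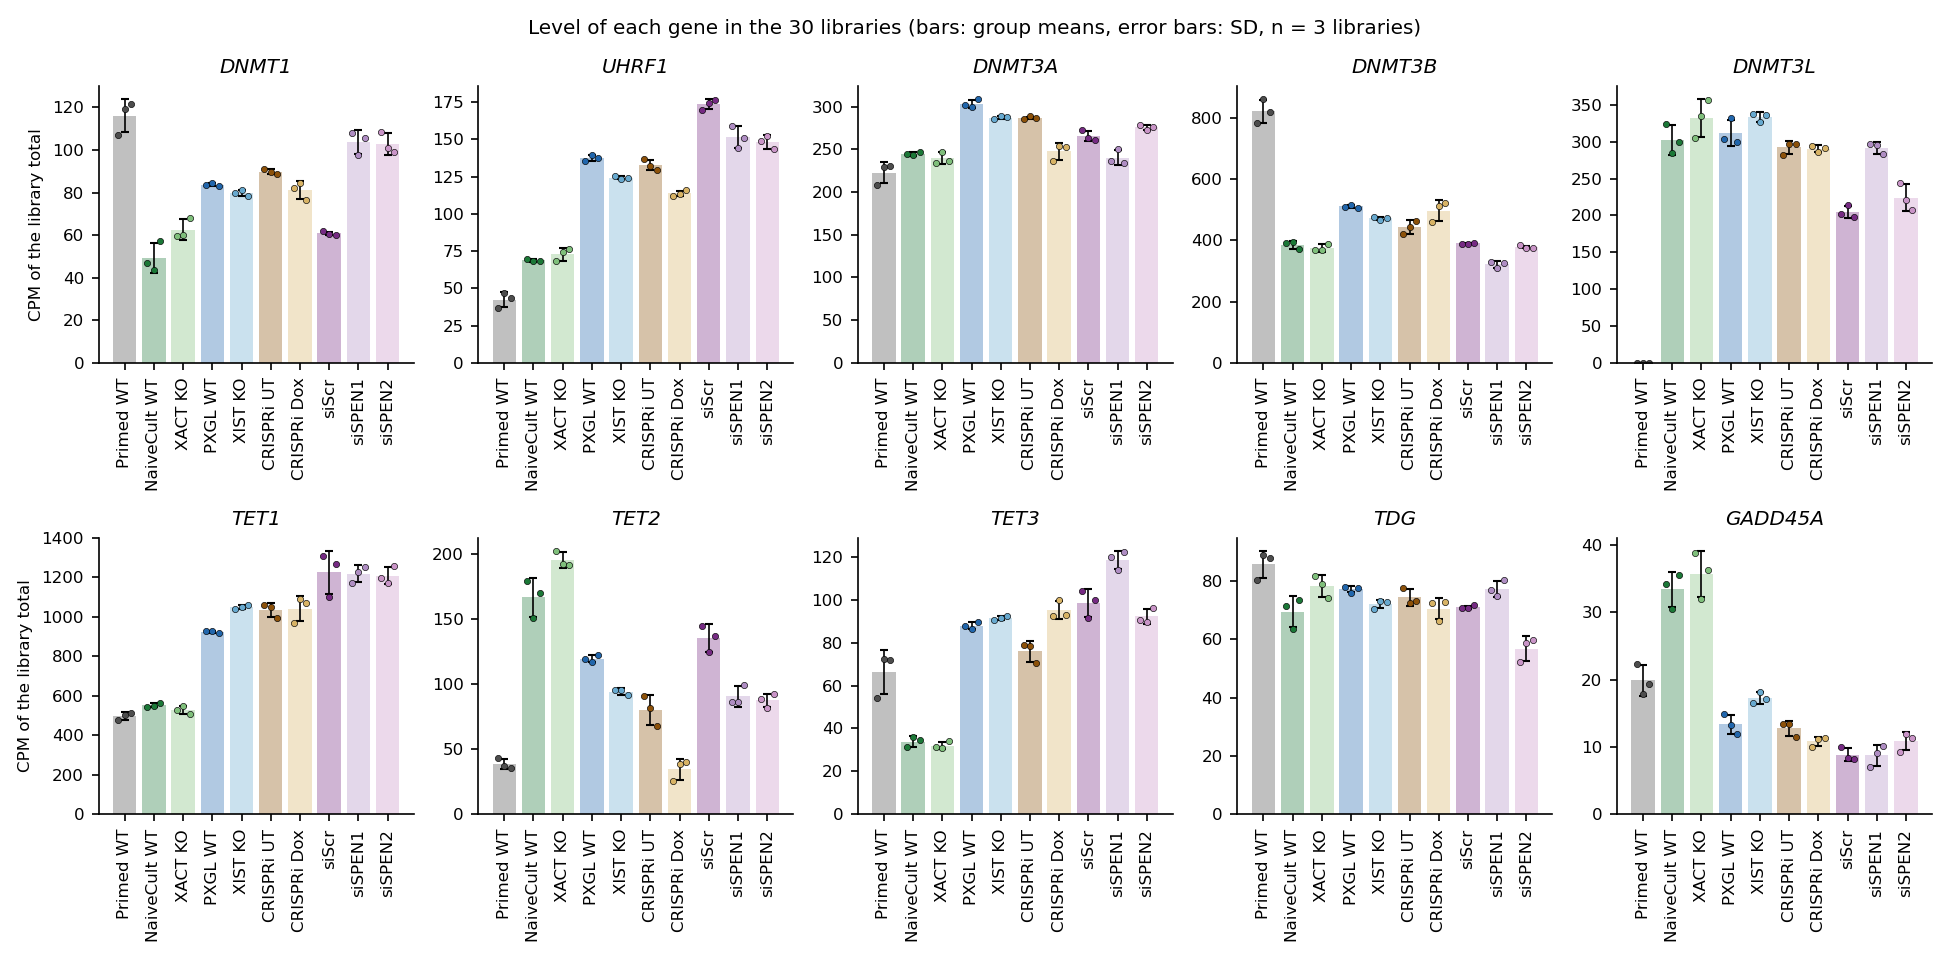
Level of each gene in CPM of the library total (vertical axis, linear, from 0) in the 10 groups (horizontal axis). Dots are libraries, bars group means and error bars SD (n = 3 libraries). DNMT3L is at 0 in Primed WT and between 198 and 356 CPM in every other library, and TET2 is lowest in CRISPRi Dox and Primed WT.

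The groups ranked differently for each gene. For DNMT1 (chromosome 19, 10133342 to 10231286, minus strand) the order of means was Primed WT, siSPEN1, siSPEN2, CRISPRi UT, PXGL WT, CRISPRi Dox, XIST KO, XACT KO, siScr and NaiveCult WT. Library ranges of neighbours overlapped among the first 3, among PXGL WT, CRISPRi Dox and XIST KO, and between XACT KO and siScr. For UHRF1 (chromosome 19, 4903080 to 4962154, plus strand) the order was siScr, siSPEN1, siSPEN2, PXGL WT, CRISPRi UT, XIST KO, CRISPRi Dox, XACT KO, NaiveCult WT and Primed WT, with overlaps between the SPEN mixes, between PXGL WT and CRISPRi UT, and between XACT KO and NaiveCult WT. DNMT1 thus stood at the top in primed cells and UHRF1 at the bottom. By CPM of the library total, DNMT1, DNMT3B and TDG had their highest mean in Primed WT, whereas after TMM scaling only DNMT3B did.

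Among the de novo genes, DNMT3A (chromosome 2, 25227855 to 25342590, minus strand) was highest in PXGL WT (304 ± 4.82 CPM) and lowest in Primed WT (223 ± 12.2 CPM), each separate from its neighbour. DNMT3B (chromosome 20, 32762385 to 32809359, plus strand) was highest in Primed WT (821 ± 38.4 CPM), followed by PXGL WT, CRISPRi Dox and XIST KO, whose neighbouring ranges overlapped, and lowest in siSPEN1 (321 ± 11.5 CPM). DNMT3L (chromosome 21, 44246339 to 44262216, minus strand) ran from XIST KO (333 ± 6.22 CPM) through XACT KO, PXGL WT, NaiveCult WT, CRISPRi UT, siSPEN1 and CRISPRi Dox, all overlapping their neighbours, to siSPEN2 (224 ± 18.6 CPM) and siScr (204 ± 8.17 CPM). Of its exon bases 13% are covered on the other strand by DNMT3L-AS1, and the counting was stranded.

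For TET1 (chromosome 10, 68560337 to 68694487, plus strand) the siRNA groups were highest (siScr 1225 ± 109 CPM), the other PXGL groups intermediate (PXGL WT 924 ± 5.36 CPM) and NaiveCult WT, XACT KO and Primed WT lowest (498 ± 19.7 CPM in Primed WT), with overlaps inside each of these sets except at PXGL WT. TET3 (chromosome 2, 73984910 to 74108176, plus strand) was highest in siSPEN1 (118 ± 4.31 CPM) and lowest in NaiveCult WT (33.9 ± 2.47 CPM) and XACT KO (32.1 ± 1.65 CPM), whose ranges overlapped. TDG (chromosome 12, 103965822 to 103988874, plus strand) differed little: every neighbouring pair of groups overlapped except the lowest, siSPEN2 (56.8 ± 4.17 CPM). GADD45A (chromosome 1, 67685201 to 67688334, plus strand) was highest in XACT KO (35.7 ± 3.46 CPM) and NaiveCult WT (33.5 ± 2.57 CPM), which overlapped, and lowest in siSPEN1 (8.78 ± 1.60 CPM) and siScr (8.88 ± 0.950 CPM), which also overlapped.

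Levels of different genes were set side by side only per kilobase of merged exons. On this scale DNMT3L made up 68.7% ± 1.56 of the summed DNMT3 level in NaiveCult WT and 63.5% ± 1.20 in PXGL WT. In Primed WT it made up none, and DNMT3B made up 88.1% ± 0.330 and DNMT3A 11.9% ± 0.330. Over the naive groups the DNMT3L share had means from 59.1% ± 1.01 in siScr to 71.2% ± 1.18 in XACT KO, and DNMT3B was second in each. TET1 had the largest share of the TET level in every group, from 79.2% ± 0.8001 in XACT KO to 92.0% ± 0.0987 in CRISPRi Dox. TET2 was second in NaiveCult WT (14.4% ± 1.15), ahead of TET3 (3.73% ± 0.301), and the smallest in Primed WT (3.998% ± 0.590), behind TET3 (8.61% ± 1.01). With canonical transcript lengths the TET2 share was 22.4% ± 1.62 in NaiveCult WT and 6.63% ± 0.955 in Primed WT.

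**Figure D2:**
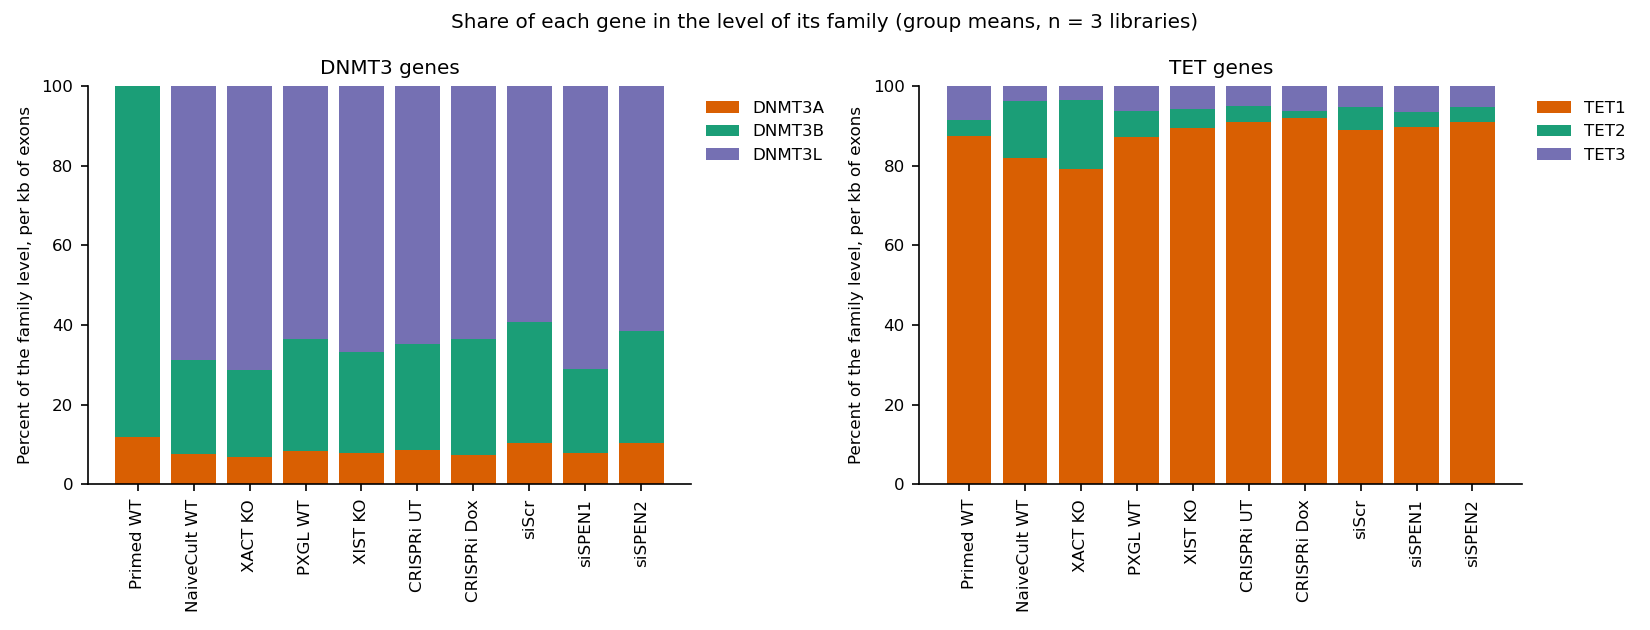
Percent of the summed level per kilobase of exons (vertical axis, 0 to 100) contributed by each DNMT3 gene (left) and each TET gene (right) in the 10 groups; stacked bars are group means of 3 libraries. DNMT3L takes no part of the Primed WT bar and 59.1% to 71.2% of the others, while TET1 takes 79.2% to 92.0% throughout.

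The first comparison asked how naive and primed cells of the same line differ. NaiveCult WT and Primed WT share a series of library names. DNMT3L, with no primed counts, is given apart, since its high naive level admitted it to the fit. The other 9 genes passed the test, 5 higher and 4 lower in NaiveCult WT, where 85.4% of all tested genes passed (42.5% higher and 43.0% lower). TET2 and DNMT1 were called, as were 49.6% of all genes. Passing was therefore usual for any gene in this comparison. The median log2 fold change of all tested genes was -0.013.

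In the maintenance pair, DNMT1 fell and UHRF1 rose in naive cells. DNMT1 was at 107, 119 and 122 CPM in the Primed WT libraries, 47.1, 43.7 and 57.3 CPM in NaiveCult WT and 83.6, 84.4 and 82.97 CPM in PXGL WT. These ranges did not overlap, NaiveCult WT being lowest. DNMT1 fell in NaiveCult WT (log2 fold change -1.08, SE 0.079, edgeR adjusted p = 1.12e-08). UHRF1 was at 37.1, 47.0 and 43.4 CPM in Primed WT, 70.0, 68.3 and 68.5 CPM in NaiveCult WT and 136, 139.7 and 137 CPM in PXGL WT. Every naive library lay above every primed library, and UHRF1 rose (log2 fold change 0.85, SE 0.067, edgeR adjusted p = 2.80e-08). Per kilobase of exons the level of UHRF1 was 1.09 ± 0.0735 times that of DNMT1 in Primed WT, 4.23 ± 0.578 times in NaiveCult WT and 4.92 ± 0.0508 times in PXGL WT. With the length of the canonical transcript in place of merged exons, these values were 0.495 ± 0.0333 in Primed WT and 1.91 ± 0.262 in NaiveCult WT, so which of the pair was higher in Primed WT depended on the length used.

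**Figure D3:**
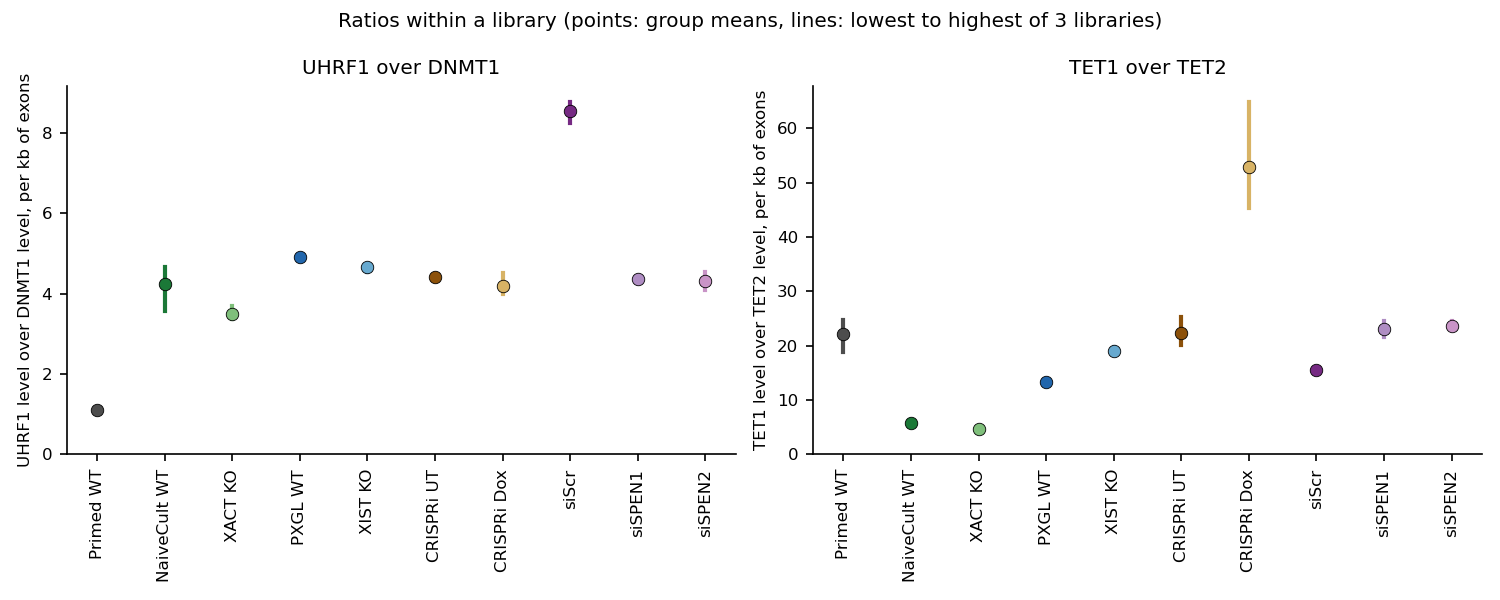
Ratio of UHRF1 to DNMT1 (left) and of TET1 to TET2 (right), each per kilobase of merged exons (other lengths change the ratios' scale), in the 10 groups; points are group means and lines run from the lowest to the highest of 3 libraries (linear axes from 0). UHRF1 over DNMT1 is 1.09 in Primed WT, 8.54 in siScr and 3.50 to 4.92 in the other groups, and TET1 over TET2 is 52.9 in CRISPRi Dox and 4.62 to 23.7 elsewhere.

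The de novo genes diverged. DNMT3L had 0 counts in each Primed WT library and 13301, 12227 and 13287 counts in NaiveCult WT (302 ± 20.4 CPM), and it was at 303, 332 and 299.7 CPM in PXGL WT. Against a floor of 3 counts over the primed libraries (0.0179 CPM) it was at least 16872-fold higher in NaiveCult WT and at least 17387-fold higher in PXGL WT. DNMT3B was at 784, 860.4 and 818 CPM in Primed WT, 390.5, 396 and 371 CPM in NaiveCult WT and 509, 516 and 506 CPM in PXGL WT. Each primed library exceeded every naive library, and in NaiveCult WT DNMT3B fell (log2 fold change -0.93, SE 0.047, edgeR adjusted p = 1.87e-10). DNMT3A was at 209, 229.6 and 230.2 CPM in Primed WT, 244, 243 and 247 CPM in NaiveCult WT and 302, 299.5 and 309 CPM in PXGL WT. The ranges were apart, and DNMT3A rose in NaiveCult WT (log2 fold change 0.29, SE 0.043, edgeR adjusted p = 2.22e-05).

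Of the TET genes, TET2 rose, TET3 fell and TET1 rose slightly in NaiveCult WT. TET2 was at 43.3, 37.5 and 35.7 CPM in Primed WT, 179.5, 150.5 and 170.3 CPM in NaiveCult WT and 119.5, 117 and 122 CPM in PXGL WT. No library of either naive group reached the primed range, and TET2 rose (log2 fold change 2.25, SE 0.077, edgeR adjusted p = 2.89e-12). TET3 was at 54.4, 72.4 and 72.0 CPM in Primed WT, 31.2, 36.01 and 34.5 CPM in NaiveCult WT and 87.6, 86.3 and 89.6 CPM in PXGL WT. Primed WT lay between the naive protocols without overlap, and in NaiveCult WT TET3 fell (log2 fold change -0.81, SE 0.091, edgeR adjusted p = 1.26e-06). TET1 was at 476, 502 and 515 CPM in Primed WT, 545, 547 and 563 CPM in NaiveCult WT and 925, 929 and 918 CPM in PXGL WT. NaiveCult WT lay just above Primed WT (log2 fold change 0.30, SE 0.041, edgeR adjusted p = 9.21e-06), and PXGL WT well above both.

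TDG, which acts after oxidation, and GADD45A, reported to take part in this removal, moved apart as well. GADD45A was at 22.4, 17.9 and 19.4 CPM in Primed WT, 34.3, 30.6 and 35.5 CPM in NaiveCult WT and 14.9, 13.3 and 11.98 CPM in PXGL WT. NaiveCult WT was above and PXGL WT below the primed range, and GADD45A rose in NaiveCult WT (log2 fold change 0.90, SE 0.10, edgeR adjusted p = 1.04e-06). TDG was at 80.5, 88.9 and 88.0 CPM in Primed WT, 71.4, 63.4 and 73.5 CPM in NaiveCult WT and 77.9, 75.9 and 77.7 CPM in PXGL WT. Its fall in NaiveCult WT was slight (log2 fold change -0.15, SE 0.056, edgeR adjusted p = 0.02) and failed the test without Primed WT replicate 2 or 3 or NaiveCult WT replicate 2, where adjusted p was 0.056 to 0.097, without the filter on low counts (adjusted p 0.053) and in a fit of its 6 libraries alone (adjusted p 0.07).

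Trophoblast markers moved with these differences. The 6 markers summed to 10.2 to 10.6 CPM in Primed WT, where VGLL1 and CGA were at 0, to 331 to 421 CPM in NaiveCult WT and to 22.2 to 23.9 CPM in PXGL WT, and 6 of 6 rose in NaiveCult WT. Hypoblast markers (4 genes) summed to 124 to 127, 75.4 to 89.9 and 39.4 to 41.1 CPM in the same order of groups, and fibroblast markers (6 genes) to 57.7 to 63.5, 16.1 to 28.2 and 3.27 to 3.88 CPM. Single markers did not all follow these sums. In NaiveCult WT 3 hypoblast markers rose and 1 fell, and 3 fibroblast markers rose and 2 fell. In PXGL WT 5 trophoblast markers rose and 1 fell, 2 hypoblast markers rose and 1 fell, and 5 fibroblast markers fell. Of these markers only LUM, in PXGL WT, was at 0 throughout one of these 3 groups. S phase genes (12 genes, which include no member of the 10) summed to 1812 to 1900.5, 1828 to 1860.2 and 2034 to 2043 CPM. The part of such cells in the changes of the 10 genes was not tested.

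Genes that work with these enzymes were described beside them. Of 8 tested partners of maintenance, 3 rose and 4 fell in NaiveCult WT (median log2 fold change -0.047). DPPA3, which displaces UHRF1 from chromatin, went from 2.91 ± 0.515 to 407 ± 20.9 CPM (log2 fold change 7.26, SE 0.093, edgeR adjusted p = 2.09e-16), while UHRF2, the paralog of UHRF1, fell from 85.7 ± 4.19 to 16.4 ± 0.485 CPM and HELLS, a remodeller needed for methylation, fell by 1.56 on the log2 scale. Of 8 genes that set the histone marks or guard the sites that de novo enzymes read, 3 rose and 5 fell (median -0.20): QSER1, which protects sites from de novo methylation together with TET1, fell from 486 ± 55.2 to 51.5 ± 3.36 CPM (log2 fold change -3.09, SE 0.074, edgeR adjusted p = 7.56e-14), NSD2, a histone methyltransferase, fell by 2.11, PRDM14, a repressor of DNMT3B, rose from 56.9 ± 3.34 to 199 ± 24.5 CPM, and KDM1B, a histone demethylase, rose by 1.25.

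Of 10 tested genes of the methyl donor cycle, 6 rose and 2 fell (median 0.31). BHMT, which remethylates homocysteine, rose by 2.99, MAT1A, a synthetase of the methyl donor, fell by 5.13, and BHMT2 and NNMT were at or under 2 counts over the primed libraries and at 2.41 ± 0.662 and 6.25 ± 1.04 CPM in NaiveCult WT. Among 8 TET partners and enzymes of the 2-oxoglutarate supply, 2 rose and 5 fell (median -0.80). CXXC4, which binds TET2 and promotes its loss, went from 10.7 ± 1.20 to 0.455 ± 0.225 CPM (log2 fold change -4.41, SE 0.24, edgeR adjusted p = 4.97e-10), CXXC5 fell by 2.58 and D2HGDH by 2.41, and IDH3A rose by 2.20. In base excision repair 4 rose and 4 fell of 11 (median 0.014; NEIL3, a glycosylase, fell by 1.30), and of 7 methyl-CpG readers 5 rose and 2 fell (median 0.22; MBD3 rose by 1.97 and MBD2 by 1.01). Of the paralogs of GADD45A, GADD45G rose by 2.39 and GADD45B by 1.35.

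PXGL WT was compared with Primed WT with the same primed libraries as control, and the PXGL and primed libraries belong to different series of names, so state and series cannot be told apart. Of the 9 genes other than DNMT3L 8 passed, 5 higher and 3 lower in PXGL WT, where 87.5% of all genes passed (43.1% higher, 44.4% lower). UHRF1, TET2 and TET1 were called, against 54.8% of all genes. UHRF1 rose (log2 fold change 1.90, SE 0.068, edgeR adjusted p = 3.61e-12), as did TET2 (log2 fold change 1.83, SE 0.076, edgeR adjusted p = 1.95e-11) and TET1 (log2 fold change 1.10, SE 0.041, edgeR adjusted p = 6.70e-12). DNMT3A (log2 fold change 0.65) and TET3 (0.61) also rose, and DNMT3B (-0.48), GADD45A (-0.37) and DNMT1 (-0.26) fell, with edgeR adjusted p of at most 0.0052. TDG did not pass (log2 fold change 0.055, SE 0.055, edgeR adjusted p = 0.36, 95% interval -0.053 to 0.16), and its sign turned when only library totals were used (-0.15). That scaling shifted the median of all genes to -0.24 in this comparison and to -0.17 in NaiveCult WT against Primed WT, and turned the direction of no other of the 10 genes in either.

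Set side by side, the log2 fold changes against Primed WT were 0.85 in NaiveCult WT and 1.90 in PXGL WT for UHRF1, 0.30 and 1.10 for TET1, and -1.08 and -0.26 for DNMT1. TET3 (-0.81 and 0.61) and GADD45A (0.90 and -0.37) had opposite signs. Of the partner lists in PXGL WT, 5 of 8 maintenance partners rose and 3 fell (median 0.28; DPPA3 6.78, UHRF2 -3.19, HELLS -1.39 and CDCA7 -1.19). Of the genes on histone marks 4 rose and 3 fell of 8 (median 0.22; PRDM14 2.93, KDM1B 1.59, QSER1 -1.42 and NSD2 -1.21). Methyl-CpG readers rose in 6 of 7 (median 1.14; MBD3 1.84, MBD1 1.46, MBD2 1.16 and ZBTB4 1.14). TET partners again split into 2 higher and 5 lower of 8 (median -1.04; IDH2 -3.18, CXXC4 -3.00, IDH3A 2.43 and D2HGDH -2.27). In the methyl donor cycle 6 rose and 4 fell of 10 (median 0.69; MAT1A -4.90 and BHMT 4.87, with BHMT2 at 5.32 ± 0.555 and NNMT at 0.0370 ± 0.0330 CPM), and in base excision repair 6 and 3 of 11 (median 0.15; NEIL3 -1.39). GADD45B rose by 1.03.

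The direct comparison of the naive protocols gave 9 of 10 genes past the test, 7 higher and 2 lower in PXGL WT than in NaiveCult WT, where 70.6% of all genes passed (35.7% higher, 34.9% lower). It shares libraries with both comparisons above, and protocol and series of library names cannot be told apart in it. TET3, UHRF1 and GADD45A were called, against 27.4% of all genes. TET3 was higher (log2 fold change 1.43, SE 0.092, edgeR adjusted p = 7.39e-09), as was UHRF1 (log2 fold change 1.05, SE 0.066, edgeR adjusted p = 5.86e-09). GADD45A was lower (log2 fold change -1.27, SE 0.10, edgeR adjusted p = 7.05e-08). DNMT1 (0.82), TET1 (0.80), DNMT3B (0.46), DNMT3A (0.36) and TDG (0.21) were higher and TET2 (-0.43) lower, with edgeR adjusted p of at most 0.0044. DNMT3L did not pass (log2 fold change 0.10, SE 0.062, edgeR adjusted p = 0.18, 95% interval -0.024 to 0.22), its libraries overlapping between the protocols.

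All 6 trophoblast markers were lower in PXGL WT than in NaiveCult WT, with the sums given above, and their part in these differences was not tested. The histone-mark genes were higher in 7 and lower in 1 of 8 (median 0.70; QSER1 1.66), the maintenance partners higher in 5 and lower in 3 of 8 (median 0.17), and the methyl-CpG readers higher in 5 and lower in 1 of 7 (median 0.40; ZBTB4 1.66). TET partners split into 4 higher and 3 lower of 8 (median 0.19; IDH2 -1.79 and CXXC4 1.41), methyl donor genes into 5 and 4 of 10 (median 0.19; NNMT -7.30, BHMT 1.88 and BHMT2 1.20) and base excision repair into 6 and 4 of 11 (median 0.14). GADD45G was lower, with a log2 fold change of -2.45. The median of all genes was 0.0021.

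Loss of XIST, the RNA that coats the X chromosome, was examined in PXGL cells by knockout and by inducible repression. In XIST KO 4 of the 10 genes passed, 2 higher and 2 lower, where 12.9% of all genes passed (6.94% higher, 5.99% lower), and none was called. The XIST KO libraries being technical replicates of 1 clone, these p-values do not cover the spread between clones. TET1 was at 925, 929 and 918 CPM in PXGL WT and 1039.6, 1048 and 1057 CPM in XIST KO. The knockout libraries all lay higher (log2 fold change 0.18, SE 0.041, edgeR adjusted p = 0.0047). GADD45A went from 14.9, 13.3 and 11.98 CPM to 16.5, 18.2 and 17.1 CPM, without overlap (log2 fold change 0.37, SE 0.083, edgeR adjusted p = 0.0048). UHRF1 went from 136, 139.7 and 137 CPM to 125, 124 and 124 CPM, and each knockout library was lower (log2 fold change -0.15, SE 0.034, edgeR adjusted p = 0.0047).

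TET2 was at 119.5, 117 and 122 CPM in PXGL WT and 95.6, 95.9 and 91.4 CPM in XIST KO. Its ranges were apart too and it fell (log2 fold change -0.34, SE 0.10, edgeR adjusted p = 0.034), but it failed the test without any 1 of the 6 libraries (adjusted p 0.088 to 0.12) and with DESeq2 (adjusted p 0.15). The remaining 6 genes had log2 fold changes from -0.12 (DNMT3B, 95% interval -0.21 to -0.028) to 0.095 (DNMT3L, 95% interval 0.0099 to 0.18), and DNMT3L passed without PXGL WT replicate 2 (adjusted p 0.0097). When only the 6 libraries compared were fitted, 8 genes passed, 3 higher and 5 lower. Partner genes that passed were all higher: 3 of 8 maintenance partners (median 0.049), 3 of 7 methyl-CpG readers (median 0.047), 2 of 9 methyl donor genes (median 0.066), 2 of 8 TET partners (median -0.022) and 1 of 8 on histone marks (median 0.035), against a median of -0.0060 over all genes. None of 11 repair genes (median -0.038) passed. Trophoblast markers fell in 4 of 6, from a sum of 22.2 to 23.9 to 13.5 to 14.6 CPM, and their part was not tested.

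XIST was repressed with doxycycline in the CRISPRi clones. No group analysed here received doxycycline without the guide and repressor, so repression and the drug itself cannot be told apart. SPEN also fell in CRISPRi Dox (log2 fold change -0.31, SE 0.067, edgeR adjusted p = 0.001), and its part in the changes below was not tested. In CRISPRi Dox 7 of 10 passed, 2 higher and 5 lower, against 39.6% of all genes (20.7% higher, 18.9% lower). In a fit of the 6 libraries alone 5 passed. TET2 alone was called, as were 3.81% of all genes. TET2 was at 90.6, 81.9 and 67.7 CPM in CRISPRi UT and 25.6, 38.4 and 40.3 CPM in CRISPRi Dox. Every treated library lay below every untreated library, and TET2 fell (log2 fold change -1.22, SE 0.11, edgeR adjusted p = 3.59e-08). Over 14 alternative settings the log2 fold change ran from -1.35 to -1.03, with a highest adjusted p of 1.10e-04. The level of TET1 relative to TET2 per kilobase of exons was 22.4 ± 2.59 in CRISPRi UT and 52.9 ± 10.4 in CRISPRi Dox. With canonical transcript lengths these values were 13.03 ± 1.51 and 30.8 ± 6.04.

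TET3 was at 79.0, 78.6 and 70.4 CPM in CRISPRi UT and 92.5, 99.9 and 92.8 CPM in CRISPRi Dox. Every treated library was higher and TET3 rose (log2 fold change 0.31, SE 0.042, edgeR adjusted p = 6.50e-06), opposite to TET2. TET1 was at 1061, 1048 and 995 CPM and 967, 1090.0 and 1067 CPM, with overlap, and did not pass (log2 fold change -0.0044, SE 0.041, edgeR adjusted p = 0.94, 95% interval -0.084 to 0.075). UHRF1 was at 137, 132 and 129.8 CPM in CRISPRi UT and 112, 113 and 116 CPM in CRISPRi Dox, without overlap (log2 fold change -0.24, SE 0.034, edgeR adjusted p = 1.11e-05). DNMT3A was at 285.4, 288.7 and 286.5 CPM and 236, 254 and 253 CPM. The treated libraries were all lower (log2 fold change -0.23, SE 0.034, edgeR adjusted p = 2.17e-05). DNMT1 fell as well (log2 fold change -0.16, SE 0.037, edgeR adjusted p = 0.0015), from 89.8 ± 1.25 to 81.2 ± 4.07 CPM.

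DNMT3B rose in CRISPRi Dox (log2 fold change 0.15, SE 0.046, edgeR adjusted p = 0.012), but failed without CRISPRi UT replicate 1 or CRISPRi Dox replicate 3 (adjusted p 0.056 to 0.071) and in a fit of its 6 libraries alone (adjusted p 0.061), and the ranges overlapped, at 419.8, 443 and 464 CPM and 458, 511 and 521 CPM. GADD45A was at 13.4, 13.4 and 11.4 CPM in CRISPRi UT and 10.1, 11.1 and 11.3 CPM in CRISPRi Dox. It fell (log2 fold change -0.25, SE 0.086, edgeR adjusted p = 0.023), but failed without CRISPRi UT replicate 1 or 2 or CRISPRi Dox replicate 1 (adjusted p 0.099 to 0.11) and in a fit of its 6 libraries alone, without (adjusted p 0.056) and with the replicate block (adjusted p 0.077). TDG (log2 fold change -0.091, SE 0.041, edgeR adjusted p = 0.089) passed only without CRISPRi Dox replicate 3 (adjusted p 0.035), and DNMT3L did not pass (log2 fold change -0.022, SE 0.043, edgeR adjusted p = 0.72, 95% interval -0.11 to 0.062). Partner genes went both ways, with no gene called: 3 higher and 3 lower of 8 maintenance partners (median -0.046), 2 and 2 of 8 on histone marks (median -0.025), 2 and 3 of 9 methyl donor genes (median -0.0057), 2 and 1 of 11 repair genes (median 0.029), 3 and 2 of 7 readers (median 0.072) and 3 and 3 of 8 TET partners (median 0.088), where the median of all genes was -0.00097. Of 12 S phase genes 4 were lower, their sum being 1861 to 1879 CPM in CRISPRi UT and 1771 to 1836 CPM in CRISPRi Dox, and naive markers summed to 1882 to 1958 and 1521 to 1642 CPM. The 5 naive markers split into 2 higher (ARGFX 0.41 and DPPA5 0.28) and 2 lower (KLF17 -1.24 and SUSD2 -0.72). The part of both lists was not tested.

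The difference between the knockout effect and the doxycycline effect was tested as an interaction in the fit of the 12 libraries. It passed for 6 of the 10 genes, 4 with a higher and 2 with a lower change in XIST KO, where 21.8% of all genes passed. Because the XIST KO libraries were technical replicates of 1 clone, these p-values do not cover the spread between clones. XIST itself had a log2 fold change of -11.39 in the knockout and -2.62 with doxycycline, and only the second arm received the drug. TET2 fell less in the knockout, by a log2 difference of 0.88, SE 0.15, edgeR adjusted p = 3.37e-04. GADD45A, which rose in the knockout and fell with doxycycline, had a log2 difference of 0.62, SE 0.12, edgeR adjusted p = 8.78e-04. DNMT3B (log2 difference -0.27, edgeR adjusted p = 0.005) and TET3 (-0.25, edgeR adjusted p = 0.0044) had lower changes in the knockout. TET1 (0.18, edgeR adjusted p = 0.027) and DNMT3A (0.14, edgeR adjusted p = 0.036) had higher changes there. TET1 failed without any 1 of CRISPRi UT replicates 1 and 2, PXGL WT replicates 1 and 3 and XIST KO replicates 1 and 3 (adjusted p 0.055 to 0.072). DNMT3A failed without any 1 of CRISPRi UT replicates 2 and 3, CRISPRi Dox replicate 1, PXGL WT replicates 1 and 3 and XIST KO replicates 1 to 3 (adjusted p 0.05 to 0.084), and DNMT3L passed without PXGL WT replicate 2 (adjusted p 0.017). Of the partner lists reported, CXXC4 was called (log2 difference 1.27, edgeR adjusted p = 0.013). Trophoblast markers passed with a lower change in the knockout in 5 of 6, their sums being 12.7 to 13.5 CPM in CRISPRi UT and 12.2 to 15.9 CPM in CRISPRi Dox, and their part was not tested.

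**Figure D4:**
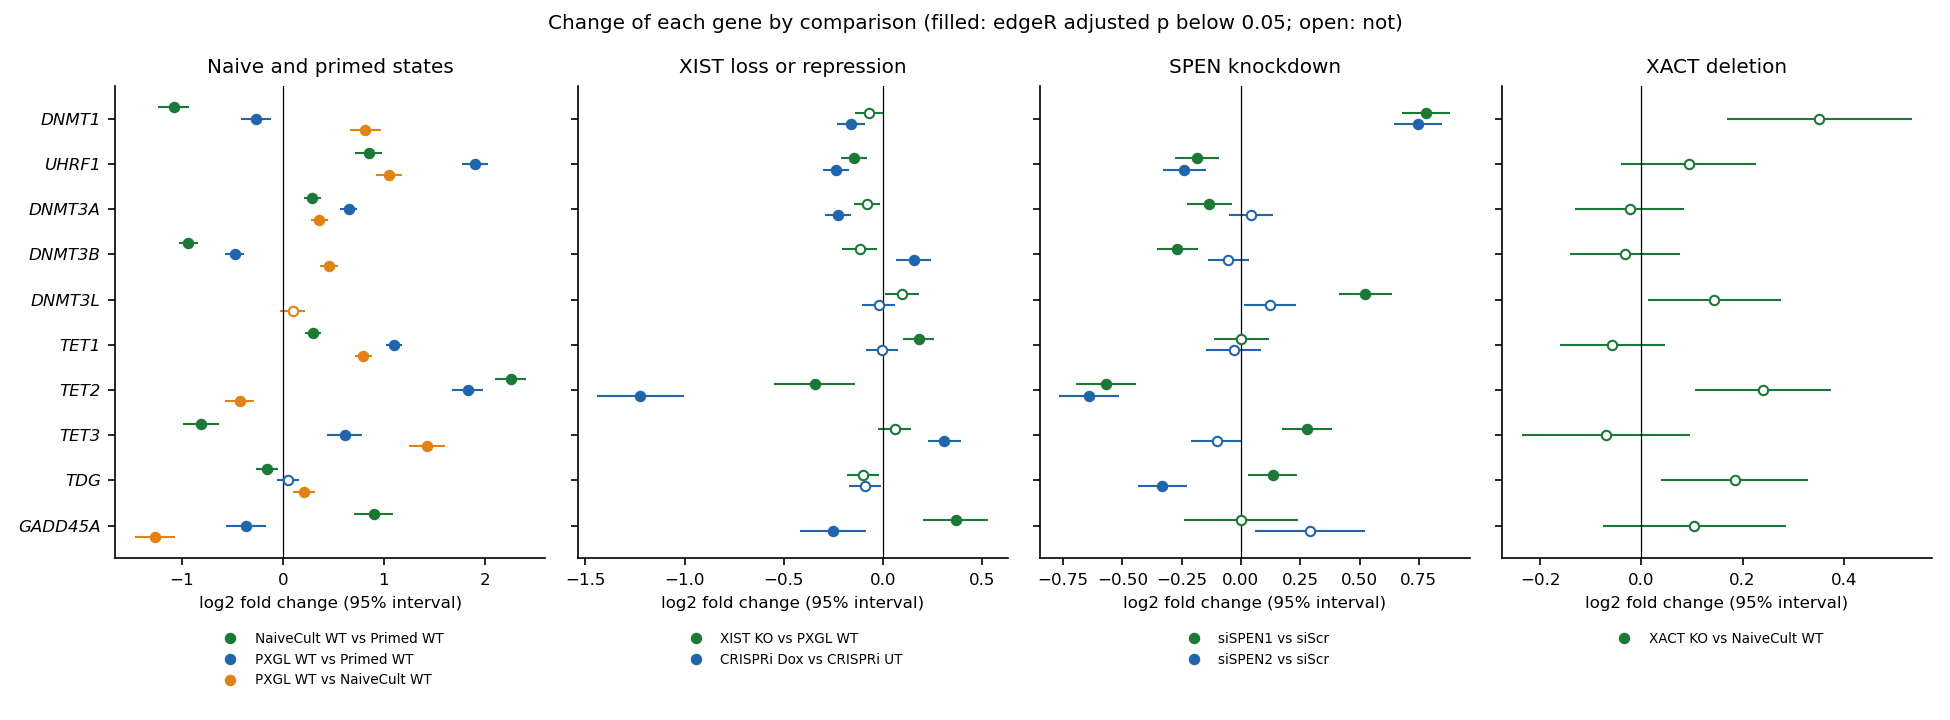
log2 fold change of each gene (horizontal axis, 95% interval as lines) in the comparisons of states, XIST loss or repression, SPEN knockdown and XACT deletion. Filled points had an edgeR adjusted p below 0.05 and open points did not. DNMT3L against Primed WT is left out because it had no primed counts. DNMT1 stands to the right with both SPEN mixes (0.78 and 0.75), TET2 to the left with both (-0.57 and -0.64) and in CRISPRi Dox (-1.22).

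SPEN is a large RNA-binding protein that acts with XIST as a repressor, and its knockdown in PXGL cells was compared with siScr for each siRNA mix. Both comparisons share the siScr libraries, so their agreement is not independent. Of the targeted genes XIST, XACT and SPEN, 2 fell with siSPEN1 and 1 with siSPEN2. With siSPEN1 XIST fell beside SPEN (log2 fold change -0.28, SE 0.085, edgeR adjusted p = 0.0097), and its part was not tested. With siSPEN1 8 of the 10 genes passed, 4 higher and 4 lower, against 43.7% of all genes (20.8% higher, 22.9% lower). With siSPEN2 4 passed, 1 higher and 3 lower, against 41.2% of all genes (20.5% higher, 20.7% lower). None of the 10 was called with either mix, where 5.08% and 4.24% of all genes were.

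DNMT1 had the largest rise among the 10. It stood at 61.7, 60.8 and 60.1 in siScr, 108, 97.5 and 106 in siSPEN1 and 109, 101 and 98.9 CPM in siSPEN2. Both knockdown groups lay far above siScr and overlapped each other. DNMT1 rose with siSPEN1 (log2 fold change 0.78, SE 0.052, edgeR adjusted p = 1.43e-10) and with siSPEN2 (log2 fold change 0.75, SE 0.052, edgeR adjusted p = 3.29e-10). UHRF1 stood at 170.0, 175 and 176 in siScr, 159, 144 and 151 in siSPEN1 and 149, 152 and 144 CPM in siSPEN2. It fell with siSPEN1 (log2 fold change -0.19, SE 0.047, edgeR adjusted p = 0.0028) and with siSPEN2 (log2 fold change -0.24, SE 0.047, edgeR adjusted p = 3.14e-04). The ratio of UHRF1 to DNMT1 per kilobase of exons went from 8.54 ± 0.277 in siScr to 4.37 ± 0.0850 and 4.32 ± 0.216, values inside the range of the other PXGL groups.

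TET2 fell with both mixes. It stood at 145, 124 and 137 in siScr, 86.0, 86.0 and 99.7 in siSPEN1 and 88.5, 81.9 and 92.1 CPM in siSPEN2. No knockdown library reached the siScr range. TET2 changed with siSPEN1 (log2 fold change -0.57, SE 0.064, edgeR adjusted p = 3.13e-07) and with siSPEN2 (log2 fold change -0.64, SE 0.064, edgeR adjusted p = 7.24e-08). TET1 did not pass with siSPEN1 (95% interval -0.11 to 0.12) or siSPEN2 (95% interval -0.15 to 0.085), and its siScr libraries, at 1306, 1101 and 1268 CPM, spanned those of both mixes.

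For the other genes the values differed more between the mixes. DNMT3L stood at 202, 214 and 198 in siScr, 297, 296 and 282.6 in siSPEN1 and 244, 221 and 207 CPM in siSPEN2. It rose with siSPEN1 (log2 fold change 0.52, SE 0.057, edgeR adjusted p = 1.78e-07), whereas siSPEN2 overlapped siScr (log2 fold change 0.12, SE 0.057, edgeR adjusted p = 0.093), and it passed there without siSPEN2 replicate 3 (adjusted p 0.032) and without the filter on low counts (adjusted p 0.047). TET3 stood at 104, 91.3 and 99.8 in siScr, 119.7, 114 and 122 in siSPEN1 and 90.7, 89.6 and 96.3 CPM in siSPEN2. It rose with siSPEN1 (log2 fold change 0.28, SE 0.054, edgeR adjusted p = 2.28e-04) and not with siSPEN2 (log2 fold change -0.10, SE 0.054, edgeR adjusted p = 0.14), where it passed as lower only without siScr replicate 2 (adjusted p 0.028). TDG stood at 70.7, 70.8 and 71.7 in siScr, 77.0, 74.8 and 80.3 in siSPEN1 and 52.1, 58.6 and 59.9 CPM in siSPEN2. Its siSPEN2 libraries were the lowest of all 30 and it fell there (log2 fold change -0.33, SE 0.053, edgeR adjusted p = 3.16e-05), while its rise with siSPEN1 (log2 fold change 0.13, SE 0.052, edgeR adjusted p = 0.044) failed without any 1 of siScr replicates 1 to 3 or siSPEN1 replicate 3 (adjusted p 0.062 to 0.11) and with scaling by library totals (adjusted p 0.079).

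DNMT3B stood at 389, 389 and 391 in siScr, 328, 308 and 327 in siSPEN1 and 383, 375 and 376 CPM in siSPEN2. It fell with siSPEN1 (log2 fold change -0.27, SE 0.044, edgeR adjusted p = 4.04e-05) and did not pass with siSPEN2 (log2 fold change -0.053, SE 0.044, edgeR adjusted p = 0.36, 95% interval -0.14 to 0.033). DNMT3A fell with siSPEN1 (log2 fold change -0.13, SE 0.048, edgeR adjusted p = 0.029), but failed without any 1 of the siScr libraries or siSPEN1 replicate 1 or 3 (adjusted p 0.066 to 0.14), and did not pass with siSPEN2 (log2 fold change 0.044, SE 0.048, edgeR adjusted p = 0.5). GADD45A did not pass with siSPEN1 (95% interval -0.24 to 0.24), and with siSPEN2 (log2 fold change 0.29, SE 0.12, edgeR adjusted p = 0.056) it passed without siScr replicate 1 or siSPEN2 replicate 1 (adjusted p 0.015 to 0.028), without the filter on low counts (adjusted p 0.014) and in a fit of its 6 libraries alone (adjusted p 0.028).

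The mixes were then compared directly. Both target the same transcript, and 5 of the 10 genes passed, 2 higher and 3 lower with siSPEN2, against 34.7% of all genes (18.3% higher, 16.3% lower). TDG (log2 fold change -0.47, SE 0.053, edgeR adjusted p = 5.59e-07), DNMT3L (log2 fold change -0.40, SE 0.056, edgeR adjusted p = 9.19e-06) and TET3 (log2 fold change -0.38, SE 0.054, edgeR adjusted p = 9.41e-06) were lower. DNMT3B (log2 fold change 0.21, SE 0.044, edgeR adjusted p = 6.05e-04) and DNMT3A (log2 fold change 0.18, SE 0.048, edgeR adjusted p = 0.0064) were higher. DNMT1, UHRF1, TET1 and TET2 did not pass (95% intervals -0.13 to 0.065, -0.14 to 0.039, -0.15 to 0.083 and -0.20 to 0.055), and GADD45A (log2 fold change 0.29, SE 0.12, edgeR adjusted p = 0.068) passed without siSPEN1 replicate 3 or siSPEN2 replicate 1 (adjusted p 0.023 to 0.025) and without the filter on low counts (adjusted p 0.022).

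DNMT1 acts at replicating DNA, and S phase genes were counted beside it. Of 12 such genes 9 rose with siSPEN1 and none fell (median log2 fold change 0.22), while 5 rose and 1 fell with siSPEN2 (median 0.11). Their sum was 1825 to 1904 in siScr, 2117 to 2171 in siSPEN1 and 1930.1 to 2032 CPM in siSPEN2, and their part in the change of DNMT1 was not tested. Between the mixes 1 was higher and 7 lower with siSPEN2 (median -0.15), where DNMT1 did not pass. Primed markers summed to 168 to 175 in siScr, 81.6 to 86.7 in siSPEN1 and 109 to 116 CPM in siSPEN2, and trophoblast markers to 14.7 to 22.1, 14.8 to 19.3 and 21.0 to 30.5 CPM. Of 3 tested primed markers 2 fell and none rose with siSPEN1 (median -0.21). With siSPEN2, against the fall of their sum, 2 rose and 1 fell (median 0.42). Of 5 tested trophoblast markers 2 rose and 1 fell with each mix. Hypoblast markers summed to 46.8 to 47.0, 40.4 to 42.9 and 34.7 to 38.7 CPM. Of these 4 genes 1 fell and none rose with siSPEN1, and 1 rose and 2 fell with siSPEN2. None of the markers of these 3 lists was at 0 throughout a group, and their part was not tested.

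Among partner genes, maintenance partners rose in 5 of 8 with siSPEN1 and none fell (median 0.22), and 4 rose and 1 fell with siSPEN2 (median 0.15). HELLS stood at 46.5 ± 2.35 in siScr, 62.9 ± 1.86 in siSPEN1 and 63.9 ± 1.09 CPM in siSPEN2. On histone marks 4 rose and 1 fell of 8 with siSPEN1 (median 0.10), and 2 and 2 with siSPEN2 (median 0.045). TET partners rose in 4 and fell in 2 of 8 with siSPEN1 (median 0.13) and in 2 and 2 with siSPEN2 (median 0.055), where IDH2, the mitochondrial isocitrate dehydrogenase, was called, from 3.998 ± 0.208 to 8.95 ± 0.718 CPM (log2 fold change 1.15, SE 0.11, edgeR adjusted p = 3.57e-08). Readers split into 2 higher and 1 lower of 7, and 3 and 2 (medians 0.018 and 0.016), repair genes into 2 and 3 of 11, and 2 and 1 (medians 0.057 and -0.0074), and methyl donor genes into 2 and 1 of 8 with each mix (medians -0.0068 and 0.10). The medians of all genes were -0.00049 and -0.0048.

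The last comparison asked what deletion of XACT, another RNA that coats the X chromosome, changed in NaiveCult cells. With edgeR none of the 10 genes passed, where 0.425% of all genes did, 4 had an unadjusted p below 0.05, and with DESeq2 2 passed. DNMT1 stood at 47.1, 43.7 and 57.3 in NaiveCult WT against 59.5, 60.1 and 68.1 CPM in XACT KO. The knockout libraries were all higher, the lowest by little (log2 fold change 0.35, SE 0.094, edgeR adjusted p = 0.078), and DNMT1 passed without NaiveCult WT replicate 3 (adjusted p 0.045), with DESeq2 (adjusted p 0.016), without the filter on low counts (adjusted p 0.014), and with the replicate block (adjusted p 0.024). TET2 was at 179.5, 150.5 and 170.3 CPM and 203, 193 and 192 CPM, again without overlap (log2 fold change 0.24, SE 0.068, edgeR adjusted p = 0.095), and passed with DESeq2 (adjusted p 0.037) and without the filter (adjusted p 0.04). TDG (log2 fold change 0.18, SE 0.074, edgeR adjusted p = 0.21) and DNMT3L (log2 fold change 0.14, SE 0.067, edgeR adjusted p = 0.27) did not pass. The other genes ranged from -0.070 (TET3, 95% interval -0.24 to 0.10) to 0.10 (GADD45A, 95% interval -0.075 to 0.28). None of the partner genes of the lists reported passed. Trophoblast markers summed to 331 to 421 in NaiveCult WT and, with XACT deleted, to 372 to 516 CPM, and fibroblast markers to 16.1 to 28.2 and 4.97 to 14.7 CPM. Of 6 trophoblast markers 1 rose, and none of 6 fibroblast markers passed. The part of these markers was not tested.

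Finally, for each gene whose group means spanned at least 2-fold, the genes of nearest profile were sought among 14725 genes, as the smallest root mean square difference of centred log2(CPM + 1) over the 10 group means. For DNMT1 these were RBM15B (difference 0.121), CLASP1 and FANCC. For UHRF1 they were PPP1R37 (0.0749), DGKZ and CCNF, and for DNMT3B FAM86B1 (0.0822), FAM86FP and SIRT3. DNMT3L was nearest to DPPA5 (0.265), ZNF727 and KHDC1L, of which DPPA5 was at 0.587 CPM in Primed WT and 495 CPM in NaiveCult WT. TET1 was nearest to MICAL3 (0.0831), HTT and UBN1, and TET3 to ZNF444 (0.113), ADNP and SETD5. For TET2 the nearest were more distant, TRIM51 (0.31), KCNA4 and RFPL4AL1, each below 5 CPM in Primed WT, NaiveCult WT and PXGL WT. GADD45A was nearest to GPATCH4 (0.134), SNORD116-2 and CBWD5. FAM86B1, FAM86FP, RFPL4AL1, SNORD116-2 and CBWD5 belong to families of near-identical copies, so their counts are uncertain.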

How the data were processed

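Sources of the values: the authors sequenced total RNA depleted of ribosomal RNA (Illumina Stranded Total RNA Prep with Ribo-Zero Plus) and deposited 1 table of raw read counts per gene and library. Per their methods and processing notes, reads were trimmed with trim_galore 0.6.5, mapped with Bowtie 2 to hg38 and mm10, cleared of duplicates with Picard 2.23.5 and of mouse feeder reads with XenofilteR, and counted over exons, by strand, with htseq-count 0.13.5. Reads that map to several places were lost by a mapping quality limit of 10, so genes with near copies read low.

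From the deposited counts, CPM of the library total and edgeR 4.0.16 quasi-likelihood fits (R 4.3.3, TMM, filterByExpr with minimum counts of 10 and 15) were computed in 4 fits: PXGL WT, XIST KO and both CRISPRi groups (17286 genes); the siRNA groups (16448); NaiveCult WT and XACT KO (16472); and the WT groups (18663). PXGL WT and NaiveCult WT each entered 2 fits. P-values were adjusted over all genes of a fit. The 10 genes and the partner and marker lists were chosen with earlier results of these data known. Of partner genes, the called ones were named, at most 4 per list and comparison. The list with the paralogs of GADD45A is not reported here as a whole. Lengths are of merged GENCODE 44 exons, with canonical transcripts as an alternative added after seeing the data. Alternatives were RLE size factors, library totals, no low-count filter, DESeq2 1.42.0, a replicate block, only the 6 libraries compared and leaving out each library. Replicate numbers were not used as pairs in the main fits. No library was a duplicate of another of its own group, and libraries of different groups were not compared for this. The fits were checked on simulated data. Depth and spread between 3 libraries limit small changes. Sequences are from RefSeq (GRCh38.p14), which gave promoter windows for 8 of the 10 genes.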

Additional observations from a re-analysis of the deposited data

Results flagged for a closer look

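The effects of XIST deletion and of doxycycline repression differed for 6 of the 10 genes, by edgeR's test of the difference itself in the fit of 12 libraries, where 21.8% of all genes passed. The log2 change in the knockout minus that with doxycycline was 0.8783 for TET2, 0.6181 for GADD45A, 0.1834 for TET1 and 0.1443 for DNMT3A. Leaving out 1 of the 12 libraries at a time, TET1 failed for 6 of them (adjusted p 0.055 to 0.072) and DNMT3A for 8 (adjusted p 0.05 to 0.084). It was -0.272 for DNMT3B and -0.2509 for TET3. Both effects were measured in PXGL cells, the first in technical replicates of 1 clone and the second in clones that carry the repressor cassette and received doxycycline. The p-values thus do not cover the spread between knockout clones.

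The siRNA mixes against SPEN differed for 5 genes, where 34.7% of all genes passed. The log2 change with siSPEN2 minus that with siSPEN1 was -0.4658 for TDG, -0.403 for DNMT3L and -0.3833 for TET3. It was 0.2144 for DNMT3B and 0.1769 for DNMT3A. The siScr libraries, which both effects share, cancel in this difference.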

How the results depend on the processing

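Of 1370 alternative values of single genes, 1278 kept their direction and side of the threshold, 44 lost the threshold, 26 gained it and 22 turned sign. The number of the 10 genes that passed changed by more than 1.5 times in few cases. With only the 6 libraries compared, 8 passed in XIST KO against PXGL WT in place of 4. In XACT KO 2 passed without the low-count filter, 2 with DESeq2 and 1 (DNMT1) with the replicate block, in place of 0, and leaving out single libraries gave 0 to 1. With TMM-scaled CPM, 1 gene was highest in Primed WT in place of 3. The cause of these shifts was not tested.

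With library totals only, log2 fold changes turned to 0.00934 for TET1 in CRISPRi Dox, -0.008136 for TET1 and -0.008596 for GADD45A in siSPEN1, and -0.1528 for TDG in PXGL WT against Primed WT (adjusted p 0.028). None of the 4 had passed with TMM. Leaving out single libraries gave -0.03277 to 0.05368 for TET1 in CRISPRi Dox, -0.05217 to 0.02144 for the TDG difference between XIST deletion and doxycycline, -0.05981 to 0.04865 for TET1 and -0.1106 to 0.1488 for GADD45A in siSPEN1, and -0.1029 to 0.01431 for TET1 in siSPEN2. None of these had passed with all libraries.

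Replicate numbers were not used as pairs in the main fits. Same-numbered deviations correlated by -0.068 to 0.085, each library correlating best with its own number only between siSPEN2 and siSPEN1. The paper describes CRISPRi clones that were treated or not with doxycycline. The labels do not say whether equal numbers mark the same clone, so these correlations cannot show whether the libraries pair by clone. With the replicate block, 4, 7, 6, 8, 4, 5, 1, 10, 9 and 9 genes passed in the comparisons as listed by XIST KO, CRISPRi Dox, their difference, siSPEN1, siSPEN2, siSPEN2 against siSPEN1, XACT KO, NaiveCult WT against Primed WT, PXGL WT against Primed WT (DNMT3L included in both) and PXGL WT against NaiveCult WT, and GADD45A in siSPEN1 turned to -0.01116, without passing in either fit.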

Other observations

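The PXGL groups that served as controls were not alike in these genes. TET2 was at 119.5 CPM in PXGL WT, 80.1 CPM in CRISPRi UT and 135.5 CPM in siScr, DNMT1 at 83.7, 89.8 and 60.8 CPM, and TET1 at 924, 1034.5 and 1225 CPM. The TET2 level in CRISPRi UT was thus below that of the XIST KO libraries, at 94.3 CPM. These groups differ in cassette, transfection and, for siScr, series of library names, which cannot be told apart, and no test was made between them.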
